A study of Saccharomyces cerevisiae with 11 samples.

Results

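The peaks described here are the places on the yeast genome at which Rnt1, the RNase III of Saccharomyces cerevisiae, was found by ChIP-seq in both libraries made for it. In ChIP-seq, DNA fixed to a protein is pulled down with an antibody and sequenced, and here the antibody was against a myc tag fused to Rnt1. A peak of replicate 1 was kept when at least 1 bp of it lay under a peak of replicate 2, and it keeps its replicate 1 coordinates. This gave 1180 shared peaks of the 1238 in replicate 1 and the 1741 in replicate 2, out of 10428 peaks in the 4 peak lists of the study (95.3% of replicate 1 peaks, 95% exact binomial interval 94.0 to 96.4%).

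The study asked where the nuclear cap-binding complex and Rnt1 sit at small nucleolar RNA (snoRNA) genes, and it comprises 11 samples. Of these, 2 are Rnt1-myc ChIP-seq libraries, 2 are Cbp20-myc ChIP-seq libraries, which serve here for one comparison, and 7 RNA-seq libraries were not analysed here. Rnt1-myc cells were MATa, with the tag integrated as RNT1-myc13::NAT, in a background listed as his3delta_1 and leu2delta_0 together with met15delta_0 and ura3delta_0. They grew in YPD at 30°C, without any treatment. The Cbp20-myc strain is also listed as MATa, in the same background. Its tag is listed on CBP80, the partner of Cbp20, as CBP80-myc13::HIS, and the strain keeps the study's name here. The methods name YPD for strains in general and do not give a temperature for each strain. Whether the Cbp20-myc and Rnt1-myc cells grew alike thus cannot be told from the methods. Several immunoprecipitations were pooled for each library according to the methods, and while the methods state in general that experiments had biological replicates, they do not describe the cultures behind these 2 libraries. No library from an untagged strain was used here. A peak is known by its chromosome, start and end alone, so nothing can be said of its height, and the depth of either library is unknown. With 1 strain, 1 condition and 2 libraries the values below are a description, and intervals given for shares cover counting error only.

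RNase III enzymes cut double-stranded RNA. Rnt1 recognises stems that are closed by a short loop with the sequence AGNN, and its best known substrates are the precursors of ribosomal RNA, of many snoRNAs and of several spliceosomal RNAs, which it cuts while they are still being made or soon after. RNA polymerase III (Pol III) makes tRNAs and a few other short RNAs. The promoter of a tRNA gene lies inside the gene, where the factor TFIIIC binds a sequence called the B box. RNA polymerase II (Pol II) makes mRNAs and nearly all snoRNAs.

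The sequences below show what lay under the peaks and what did not, read from the R64 assembly (sacCer3). The first set holds RNA stems with an AGNN loop next to RNA genes, written as DNA on the transcribed strand with the loop in capitals, each the longest uninterrupted stem of at least 7 pairs (A-T, G-C or G-T) within 300 bp of the mature RNA.
SNR47: catgttcAGAAgaacgtg
SNR68: tgtttgtaAGGAtacaggcg
LSR1: catgaatgAGTTcattcatg
SNR65: aatgacgAGAAcgtcatt
The stem of the snoRNA gene SNR47 (chrIV:541747-541764, minus strand) ended 46 bp before the mature RNA and that of the snoRNA gene SNR68 (chrIX:96988-97007, plus strand) 103 bp before it. The stem at LSR1, the gene of U2 snRNA, began 33 bp past the mature RNA (chrII:680635-680654, minus strand). All 3 lay wholly inside a shared peak. The stem 64 bp before the snoRNA SNR65 (chrIII:177101-177118, plus strand) lay under no shared peak, although the SNR65 gene itself carried one. At the peak centres such stems were not more frequent than in the genome at large. Within the 300 bp at the peak centre, 3.56% of the 1180 peaks held one on either strand, and 4.25% of 40229 adjoining 300 bp windows of the genome did. The 3 stems shown inside a shared peak lie outside its central 300 bp, so these shares do not describe whole peaks. A match is a description of the letters and not a cutting site.

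The second set holds tRNA genes and ETC sites, which are annotated as extra binding places of TFIIIC. Capitals mark the B box letters, GTTCNANNC in the tRNA genes and TTCNANNC, its last 8 letters, in the ETC sites.
EMT5: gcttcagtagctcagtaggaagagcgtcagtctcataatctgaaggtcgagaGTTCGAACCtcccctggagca
YNCG0016C: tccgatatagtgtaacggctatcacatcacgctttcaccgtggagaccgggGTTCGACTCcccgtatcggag
TRT2: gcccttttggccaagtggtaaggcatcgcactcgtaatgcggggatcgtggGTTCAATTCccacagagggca
ETC4: cccaTTCGAACCtccgtggaggc
ETC5: gtggTTCGATTCtgccctggagc
ETC6: gcaacgtagggttTTCGAACCgc
EMT5 (chrX:391043-391115, minus strand, a methionine tRNA) and YNCG0016C (chrVII:401527-401598, minus strand, a glutamate tRNA) are shown because their shared peaks, which hold them whole, were the narrowest among those with a single tRNA gene and no other gene inside. TRT2 (chrXI:46735-46806, minus strand, a threonine tRNA) had a peak in replicate 1 and none in replicate 2. The 3 ETC sites (ETC4 at chrVII:1010927-1010949, minus strand; ETC5 at chrXIII:667324-667346, minus strand; ETC6 at chrIV:1198885-1198907, plus strand) had no peak in either list.

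Shared Rnt1 peaks were found on genes of Pol II and of Pol III. Of the 1180 shared peaks, 780 (66.1%, 95% interval 63.3 to 68.8%) lay on protein-coding genes alone, with no RNA gene under them. tRNA genes lay under 262 peaks (22.2%, 19.9 to 24.7%), and with the other Pol III genes the count was 270 (22.9%, 20.5 to 25.4%). Pol II non-coding genes, which are snoRNA, snRNA and other non-coding RNA genes, lay under 65 peaks (5.51%, 4.28 to 6.97%), of which 2 also held a tRNA gene. A further 66 peaks (5.59%, 4.35 to 7.06%) touched no annotated gene, and 1 touched a pseudogene alone.

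Set against the length of each kind of gene, the order was different. Protein-coding sequence took 68.5% of the bases under shared peaks and 72.7% of the nuclear genome, a ratio of 0.943. The ratio was 16.8 for tRNA genes, 13.5 for snoRNA genes, 14.8 for snRNA genes and 12.7 for the other Pol III genes. Sequence outside any gene had a ratio of 0.973. In all, shared peaks covered 700998 bp, or 5.81% of the genome, and 5.47% of protein-coding bases but 97.3% of tRNA gene bases lay under them.

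Counted by genes, 268 of 275 tRNA genes carried a shared peak (97.5%), 70 of 75 snoRNA genes (93.3%), 4 of 5 snRNA genes and 773 of 6002 protein-coding genes (12.9%). Of 28 other non-coding RNA genes 4 did. None of the 16 Pol I features of the ribosomal DNA (rDNA) repeat did, and neither did 17 of 18 pseudogenes.

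**Figure D1:**
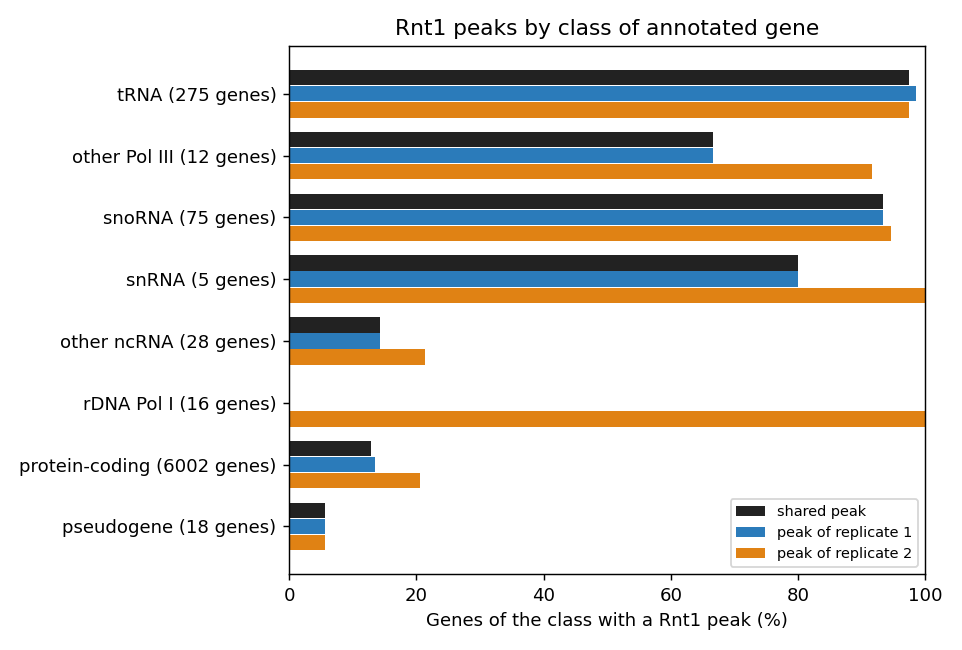
Share of annotated genes with a Rnt1 peak (%, x axis) for each class of gene (y axis, number of genes in brackets), with bars for shared peaks, replicate 1 peaks and replicate 2 peaks. The classes tRNA and snoRNA are above 90% in each list, protein-coding genes are at 12.9% for shared peaks, and the rDNA features are at 0 in replicate 1 while all 16 lie under a peak in replicate 2.

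The lists were opposed at the rDNA. Replicate 2 had a single peak of 17434 bp over both copies of the repeat that the assembly contains (chrXII:451510-468943), and replicate 1 had none there. Cbp20 lists differed in the same way, with a peak of 17481 bp in replicate 2 and none in replicate 1. The methods kept uniquely mapped reads, and whether the repeat was treated alike in the lists was not tested. Ribosomal RNA precursors are a main substrate of Rnt1, so the class at 0 here cannot be read as a class without Rnt1.

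On tRNA genes the peaks were narrow and reached past both ends. The 262 peaks had a median width of 327 bp, and 256 of the 262 held 1 tRNA gene while 6 held 2. Of these, 217 contained a single tRNA gene and no other gene, which allows their reach to be measured. In replicate 1 such a peak began a median of 123 bp before the 5ʹend of the tRNA (quartiles 109 and 143 bp) and ended a median of 109 bp past the 3ʹend (81 and 136 bp). In replicate 2 the medians were 151 bp and 130 bp. The reach was longer before the gene than after it in both lists at the median. The 3ʹside varied more, from 17 bp short of the end to 418 bp past it in replicate 1.

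**Figure D2:**
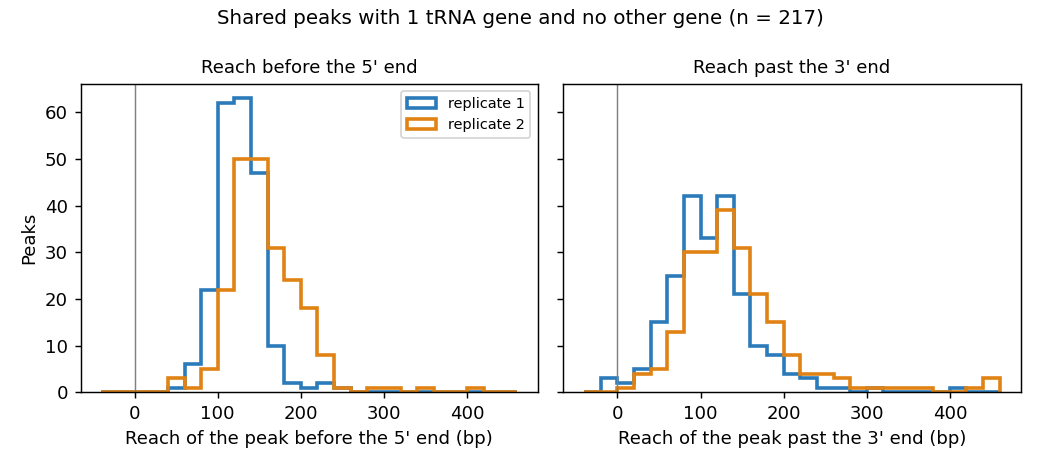
Reach (bp, x axes) of the 217 shared peaks with 1 tRNA gene and no other gene, before its 5ʹend (left) and past its 3ʹend (right), as numbers of peaks (y axis) in bins of 20 bp for replicate 1 and replicate 2; the last bin also holds 3 replicate 2 peaks that reached further. Replicate 1 has medians of 123 bp (left) and 109 bp (right), and replicate 2 of 151 bp and 130 bp.

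The B box letters were common under these peaks. GTTCNANNC, on either strand, was found in the central 300 bp of 95.8% of tRNA peaks, in 12.9% of peaks on protein-coding genes alone and in 10.6% of those outside genes, against 11.6% of all 300 bp windows of the genome. It is present in 270 of the 275 tRNA genes on their own strand (98.2%). The shorter TTCNANNC was found in each of the 8 ETC sites, none of which lay under a peak of either replicate. Their nearest shared peak was 289 to 12967 bp away. The annotated ETC sites thus carried no called peak, and nearly all tRNA genes did.

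Of the 7 tRNA genes without a shared peak, 3 had a peak in replicate 1 alone. These were TRT2 with a peak of 316 bp, the glutamine tRNA gene YNCC0001C with 219 bp and the isoleucine tRNA gene YNCL0038W with 193 bp. No tRNA gene had a peak in replicate 2 alone. The other 4 had none in either list, namely SUP53 (leucine), YNCC0008W (methionine), YNCC0009C (lysine) and YNCN0008C (aspartate). SUP53 lies 351 bp from LEU2, which the genotype lists as deleted, and LEU2 had no peak in either list. Whether the strain still holds SUP53 was not tested. YNCC0008W and YNCC0009C are neighbours on chromosome III (chrIII:149920-149991 and chrIII:151284-151356).

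Among the 12 other Pol III genes 8 carried a shared peak. RPR1, the RNA of RNase P, was wholly covered by a peak of 634 bp in replicate 1 and 977 bp in replicate 2. SCR1, the RNA of the signal recognition particle, lay within peaks of 728 bp and 832 bp. U6 snRNA, from SNR6, lay within 277 bp and 464 bp, and SNR52, the snoRNA made by Pol III, within 445 bp and 504 bp. ZOD1, a relic of an isoleucine tRNA gene, is annotated as weakly transcribed by Pol III and lay inside peaks of 161 bp and 311 bp. Of the 6 annotated 5S rRNA genes RDN5-3, RDN5-5 and RDN5-6 carried a shared peak. RDN5-1, RDN5-2 and RDN5-4 had a peak in replicate 2 alone, which for RDN5-1 and RDN5-2 was the rDNA peak of 17434 bp. RDN5-4, like those with a shared peak, is annotated apart from the rDNA repeat. RDN5-2, RDN5-3, RDN5-4 and RDN5-5 are annotated as identical in sequence, so how reads were divided among them is uncertain. RNA170, a Pol III transcript of unknown function that contains ETC5, was the one gene of the 12 with no peak in either list.

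Pol II non-coding genes carried wide peaks. For snoRNA genes the 57 peaks had a median of 618 bp (813 bp in replicate 2), and 43 of them also touched a protein-coding gene. SNR161 and SNR58 had no peak in either list. The others without a shared peak, SNR69, SNR191 and SNR50, had one in replicate 2 alone, of 496 bp, 958 bp and 437 bp. Among the spliceosomal RNAs, LSR1 (U2) lay under peaks of 1443 bp and 1514 bp and SNR19 (U1) under 1014 bp and 1090 bp. The long and short forms of U5, SNR7-L and SNR7-S, share a peak of 571 bp in replicate 1 and of 614 bp in replicate 2. SNR14 (U4) had a peak of 864 bp in replicate 2 and none in replicate 1. In replicate 1 the peaks at LSR1, SNR19 and SNR7-L ran past the 3ʹend of the RNA and stopped short of the 5ʹend, covering 93.2%, 96.5% and 82.7% of the mature sequence.

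The other non-coding RNA genes with a shared peak were NME1, SRG1, TBRT and YNCM0001W. NME1 is the RNA of RNase MRP and lay under 927 bp and 999 bp. SRG1, whose transcription represses the adjoining serine synthesis gene SER3, was wholly covered by 1743 bp and 1969 bp. TBRT, an RNA antisense to the permease gene TAT1, lay under 2168 bp and 1938 bp. YNCM0001W, antisense to the phosphate transporter gene PHO84, lay under 1996 bp and 2109 bp. The last 2 cannot be told from the coding genes they overlap, since a ChIP-seq peak has no strand.

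Peaks on protein-coding genes had the widest spread. In replicate 1 their median width was 455.5 bp, with 10% at or below 178.9 bp and 10% at or above 1496.4 bp. The replicate 2 peaks over them had a median of 1097.5 bp, and 427 of the 780 were matched by one of at least 1000 bp against 160 in replicate 1. In places replicate 2 joined what replicate 1 gave in pieces, and 120 of its peaks held more than 1 shared peak, up to 6. For tRNA peaks the same change was small, with a median of 384 bp in replicate 2 and 327 bp in replicate 1.

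**Figure D3:**
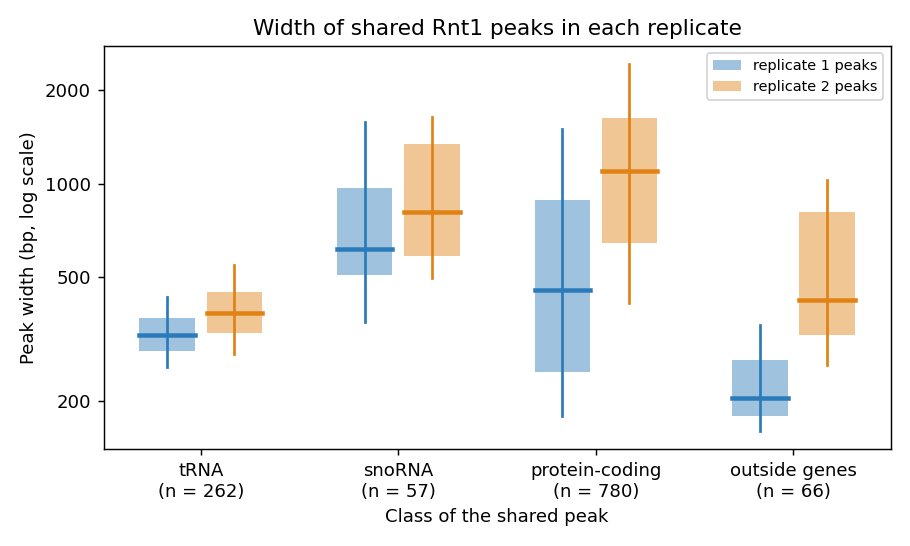
Peak width (bp, log scale, y axis) of shared peaks in replicate 1 and of the widest replicate 2 peak over each, by class (x axis, number of shared peaks in brackets); thick lines are medians, boxes the middle 50% and thin lines the middle 80%. Medians are 327 bp (replicate 1) and 384 bp (replicate 2) for tRNA peaks, and 455.5 bp (replicate 1) and 1097.5 bp (replicate 2) for protein-coding peaks.

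The 10 widest shared peaks lay on genes of the cell wall, the plasma membrane, translation and central metabolism. The widest was 5207 bp at CSS1, a GPI-anchored cell wall glycoprotein (chrIX:23409-28615), matched by 5067 bp in replicate 2. It passed 2509 bp beyond the start of CSS1 into sequence with no annotated gene. The next, 5144 bp at HPF1, which encodes a mannoprotein (chrXV:28620-33763), was matched by 5106 bp and passed 2157 bp beyond the start. These were the only ones of the 10 to pass a start by more than 266 bp. PDR5, a multidrug transporter, lay within 4806 bp (chrXV:619723-624528) and FAS1, the beta subunit of fatty acid synthase, under 4752 bp. PMA1, the plasma membrane proton pump, lay within 3714 bp and YEF3, translation elongation factor EF-3, within 3397 bp. EGT2 (a cell wall glucanase, in a peak that also touched PFA3), FKS1 (glucan synthase), EFT2 (elongation factor 2) and PFK1 (phosphofructokinase) followed with 3378, 2940, 2860 and 2853 bp. At FKS1 replicate 2 had 5768 bp, and at FAS1 6141 bp. Each of the 10 also overlapped a shared Cbp20 peak.

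In all, 773 protein-coding genes were touched by a shared peak and 398 (6.63%) lay under shared peaks over at least 50% of their length, 103 of them over the whole length. These counts depended on the library, with 810 genes touched and 402 covered over at least 50% by all replicate 1 peaks, and 1239 and 675 by all replicate 2 peaks. Of the 444 genes with a non-coding RNA gene within 500 bp, 137 were touched (30.9%), so these were set aside where single genes are named. In the 5558 genes left, 636 were touched (11.4%) and 346 were covered over at least 50%.

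By bases, the most covered of these 5558 genes were FKS1 (5490 of 5631 bp), FAS1 (5442 of 6156 bp), FAS2, the other subunit of fatty acid synthase (4851 of 5664 bp), and PDR5 (all 4536 bp). HAP1, a haem-responsive transcription factor, had 3875 of 4509 bp covered, ACC1, acetyl-CoA carboxylase, 3505 of 6702 bp, and ADE6, a purine synthesis enzyme, 3464 of 4077 bp. URA2, the first enzyme of pyrimidine synthesis, had 3228 of 6645 bp covered, YEF3 all 3135 bp and EGT2 3104 of 3126 bp. Replicate 2 alone covered more of each of these except PDR5 and YEF3, which were complete in both lists, and EGT2 (3087 bp). The difference was largest at URA2, with 6322 bp in replicate 2, and at ACC1, with 6287 bp.

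Complete cover by shared peaks was found for 35 of the 3340 such genes of at least 1000 bp. The 10 longest were PDR5, YEF3, HPF1, PMA1, EFT2, BDF1, TKL1, BAP2, ADE17 and PDC1. BDF1 encodes a bromodomain protein, TKL1 transketolase, BAP2 an amino acid permease, ADE17 a purine synthesis enzyme and PDC1 pyruvate decarboxylase. All 10 were also complete in replicate 2. RNT1 itself, tagged in these cells, had no peak in either list.

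Grouped by function, the share of genes with a shared peak ran from 100% to 1.45% over 16 lists, against 12.9% of all protein-coding genes. Cytoplasmic ribosomal protein genes stood at one end. All 137 carried a shared peak, 131 over at least 50% of the gene (95.6%, against 6.63% of all genes), and the median gene was 84.1% covered. They made up 32.9% of all genes covered that far. Their peaks lay towards the end of the gene, with the last coding base covered in 132 and the first in 29. The lowest cover was at RPL15B, with 197 of 615 bp in replicate 1 (506 bp in replicate 2), and at RPL38, with 77 of 237 bp (211 bp).

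Core metabolism and translation came next. Of 22 genes of glycolysis and fermentation 16 had a shared peak, among them PFK1 (2757 of 2964 bp), PFK2 (2567 of 2880 bp), PDC1 and the glucose phosphate isomerase gene PGI1 (1665 bp, complete). The 6 without were HXK1, PDC6, TDH1, PDC5, ADH2 and PYK2. Of 40 translation factor genes 24 had one, led by YEF3, EFT2, EFT1 (2451 of 2529 bp) and NIP1, a subunit of eIF3 (1685 of 2439 bp). Histone genes had 8 of 10, with 5 complete (HHT1, HHT2, HTA2, HTB1 and HHF1). The 2 without, HTZ1 and HHO1, encode a variant H2A and the linker histone, and both had a peak in replicate 2. EFT1 and EFT2, like HHT1 and HHT2, encode the same protein from duplicated genes, so how their reads were divided is uncertain.

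**Figure D4:**
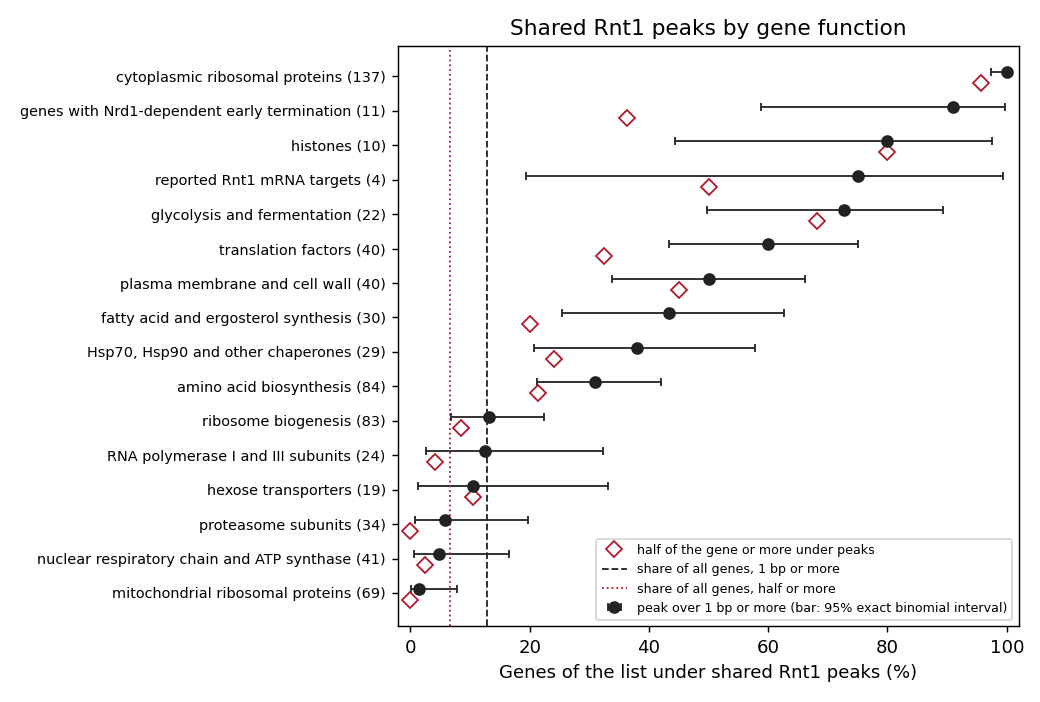
Share of genes under shared Rnt1 peaks (%, x axis) in 16 function lists (y axis, number of genes in brackets): points with 95% exact binomial intervals for a peak over 1 bp or more, diamonds for peaks over at least 50% of the gene. Dashed and dotted lines are the shares of all 6002 genes, 12.9% and 6.63%. Cytoplasmic ribosomal proteins are at 100% and mitochondrial ribosomal proteins at 1.45%.

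Plasma membrane and cell wall genes had 20 of 40, with FKS1, PDR5, PMA1 and the glucanosyltransferase gene GAS1 (1666 of 1680 bp) the most covered. Fatty acid and ergosterol synthesis had 13 of 30, among them FAS1, FAS2, ACC1 and ERG11 (1298 of 1593 bp). Chaperones had 11 of 29, led by HSC82, an Hsp90 (1979 of 2118 bp), and SSC1, SSA2 and SSB1 of the Hsp70 family (1913, 1822 and 1741 bp). Counted in replicate 2 whether or not replicate 1 had one, 18 of the 29 had a peak, against 1239 of all 6002 protein-coding genes. Amino acid synthesis had 26 of 84, led by HIS4 (2227 of 2400 bp), MET6 (2096 of 2304 bp), LEU1 (1743 of 2340 bp) and ASN1 (1609 of 1719 bp).

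By shared peaks, other lists were near or below the share of all genes. Ribosome biogenesis had 11 of 83 (13.3%), among them DBP2 (2150 of 2643 bp) and NOG1 (1414 of 1944 bp), and subunits of Pol I and Pol III 3 of 24. Counted in replicate 2 by itself, these were 18 of 83 and 6 of 24, against 1239 of all 6002 protein-coding genes. Hexose transporters had 2 of 19, HXT1 (1608 of 1713 bp) and HXT3 (1514 of 1704 bp), both low-affinity transporters. Proteasome subunits had 2 of 34, RPN10 and RPN2. This list depended on the library, since 19 of the 34 had a peak in replicate 2 (55.9%) and 3 in replicate 1 (8.82%). In replicate 2 it thus stood above the share of all genes. Nuclear genes of the respiratory chain and ATP synthase had 2 of 41, QCR6 (414 of 444 bp) and ATP2 (189 of 1536 bp), and 6 had a peak in replicate 2. Of 69 mitochondrial ribosomal protein genes 1 was touched, RSM22, where 116 of 1887 bp lay under a shared peak whose replicate 2 partner did not reach the gene, and 4 of the 69 had a peak in replicate 2. The 2 kinds of ribosomal protein gene thus lay at opposite ends of the range.

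A pair of short lists bear on RNA cutting and early termination. Of 4 mRNAs reported elsewhere as Rnt1 substrates, RPS22B was complete (876 bp), BDF2 had 1564 of 1917 bp covered and MIG2, a transcriptional repressor, 437 of 1149 bp, or 1099 bp in replicate 2. HSL1 had no peak in either list. RPS22B is also in the ribosomal protein list, where every member was covered. Of 11 genes with Nrd1-dependent early termination 10 were touched, among them URA2, PHO84 (1764 bp, complete), IMD3 (1135 of 1572 bp) and SER3 (1077 of 1410 bp). PCF11 had none. PHO84 and SER3 adjoin or overlap the non-coding genes YNCM0001W and SRG1 named above. The annotation has these repress PHO84 through histone deacetylation and SER3 through transcription interference, so both fit the name of the list loosely.

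In the 16 lists together 287 of 675 genes were touched (42.5%), and of the genes in no list 486 of 5327 (9.12%). The most covered genes in no list pointed to a further pair of groups, which were chosen after their values were seen. Of 11 genes of purine nucleotide synthesis all 11 were touched and 10 were covered over at least 50%, with ADE57 (2350 of 2409 bp), ADE3 (2488 of 2841 bp) and ADE17 among the highest and ADE16 (201 of 1776 bp) the lowest. Of 12 genes grouped here under daughter cell separation 10 were touched, with the chitinase gene CTS1 and AMN1, DSE2, SCW11 and SUN4 complete. Not all of them carry out separation, since AMN1 is annotated as an inhibitor of it and PRY3 with a part in sterol export. DSE3 had a peak in replicate 2 alone and RME1 had none.

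The terms that the annotation itself attaches to genes with experimental evidence gave the same ends of the range. Of 144 terms with at least 30 genes, cytosolic large ribosomal subunit was highest (79 of 80 genes), followed by cytosolic small ribosomal subunit (36 of 39). Outside ribosomal terms, extracellular region (15 of 31) and fungal-type cell wall (36 of 78) were highest, then cytoplasmic stress granule (36 of 95). Structural constituent of ribosome stood at 114 of 192, and at 1 of 79 once cytoplasmic ribosomal proteins were left out. In 6 terms no gene was touched, among them mitochondrial large ribosomal subunit (45 genes), trans-Golgi network (35 genes) and ubiquitin protein ligase activity (34 genes).

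Cover fell with gene length by the stricter measure more than by the looser one. When all 6002 genes were divided by length into 5 equal parts, the share touched was 13.9%, 14.9%, 13.1%, 12.8% and 9.66%, from the shortest to the longest. The share covered over at least 50% was 9.16%, 9.41%, 5.82%, 6.02% and 2.75%. In a longer gene this measure takes more covered bases. Of the 398 genes covered that far, 131 were cytoplasmic ribosomal protein genes, a list with a median length of 771 bp. Their part in the fall was not tested.

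Along the genes, Rnt1 peaks lay towards the 3ʹend. This was measured on the 355 touched genes of at least 1000 bp with no non-coding RNA gene within 500 bp. The coding length was cut into 3 equal parts. The first part held 25.4% of the covered bases, the middle part 35.8% and the last part 38.9%. In replicate 1 alone the shares were 25.4%, 35.7% and 38.9%, and in replicate 2 alone 28.5%, 36.5% and 34.9%. In both lists the first part held least, while in replicate 2 the middle part held more than the last.

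**Figure D5:**
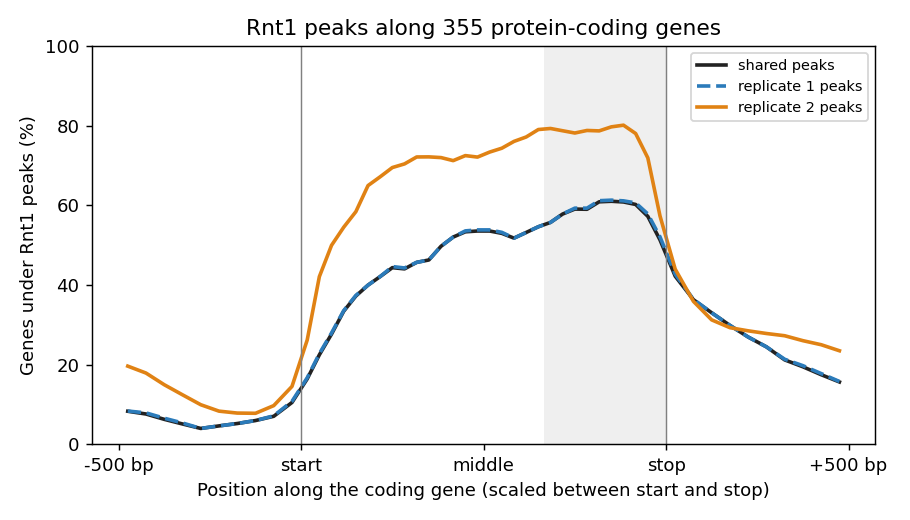
Share of 355 protein-coding genes under Rnt1 peaks (%, y axis) from 500 bp before the start to 500 bp past the stop (x axis, coding length scaled; the last of 3 equal parts is shaded), for shared, replicate 1 and replicate 2 peaks. Shared and replicate 1 peaks run together and climb to 61.0% in the shaded part, and replicate 2 peaks are higher throughout the coding length.

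The ends of the genes differed more than these parts. The last coding base lay under a shared peak in 166 of the 355 genes (46.8%) and the first in 51 (14.4%). Only the last was covered in 126 and only the first in 11, while 40 had both and 178 neither. In replicate 2 the last base was covered in 179 genes and the first in 68. Cover was 10.5% in the 50 bp before the start, and 42.2% in the 50 bp past the stop, and it was still 15.6% in the last 50 bp of the 500 bp past the stop. In the 107 genes of at least 2000 bp, 36 had the last base covered and 12 the first.

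Counted by peaks, 685 of the 780 on protein-coding genes alone touched a single gene. Of all 780, 428 lay within 1 gene (54.9%), 189 crossed its stop (24.2%), 21 crossed its start (2.69%) and 47 held the whole gene. The peak centre fell in the first of 3 equal parts of a gene for 95 peaks, in the middle part for 323 and in the last for 317, and outside the gene for 45.

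Introns of ribosomal protein genes were largely under peaks. Shared peaks touched 90 of 91 introns in the 89 genes that have one, with 63.9% of intron bases covered against 93.7% of the coding bases of the same genes. Of 182 other intron-containing genes 21 were touched (11.5%), near the 12.9% of all protein-coding genes.

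Repeated sequence took part of the peaks. Shared peaks touched 93 of 384 long terminal repeats (LTRs), and 90 of the 93 lay under a peak that also held a tRNA gene. Of 50 full Ty elements 34 were touched, by 85 peaks, 72 of which held no tRNA gene. These are counts of touches by at least 1 bp, from which no preference for repeats can be read. Because uniquely mapped reads were kept, the copies of Ty elements are seen only where they differ. Of 90 protein-coding genes within Ty elements 42 were touched, against 773 of all 6002 protein-coding genes (12.9%). None of the 90 was covered over 50%, against 398 of all 6002 (6.63%).

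Of the 66 peaks outside any annotated gene, 19 lay at telomeres, 4 at centromeres and 43 on no annotated feature. The 43 fell between genes in tandem in 24 cases, between divergent genes in 17 and between convergent genes in 2. The widest of the 66 was 583 bp (chrV:504227-504809, between GCG1 and CHD1, 917 bp in replicate 2). Next were 542 bp at the left end of chromosome III (chrIII:70-611), 506 bp on chromosome VIII (chrVIII:556582-557087), 381 bp near the right end of chromosome XIV (chrXIV:783903-784283) and 361 bp over CEN13 (chrXIII:267910-268270). The last had 497 bp in replicate 2 and no Cbp20 peak, unlike the other 4. As a class these were narrow, with a median of 204 bp in replicate 1 and 421.5 bp in replicate 2.

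Centromeres differed between the lists. Replicate 1 had a peak on 10 of 16 and replicate 2 on 2, CEN4 and CEN13. Shared peaks touched 5, but at CEN5, CEN8 and CEN10 the replicate 2 partner ended short of the centromere. Of 352 replication origins 27 were touched by at least 1 bp (7.67%). The 5.81% of genome bases under shared peaks is another measure, which a count of touches can exceed without any preference for origins.

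Peaks seen in a single list had another make-up. The 58 replicate 1 peaks with no partner had a median of 183 bp, and 45 lay on protein-coding genes alone, 10 outside genes and 3 on tRNA genes. The 711 replicate 2 peaks with no partner had a median of 313 bp, and 638 lay on protein-coding genes alone (89.7%) and 67 outside genes, with none on a tRNA gene. Over all replicate 2 peaks, with or without a partner, 464 protein-coding genes had a replicate 2 peak and none of replicate 1. Their median cover was 26.9% of the gene, whereas the 773 genes with a shared peak had a median of 83.8% covered in replicate 2. Depth, which could set how many weak peaks are called, is unknown for both, and its part in this was not tested.

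Peaks were found on each chromosome. Their density ran from 6.76 per 100 kb on chromosome II to 12.8 on chromosome V, and for peaks on protein-coding genes alone from 4.77 on chromosome IX to 8.25 on chromosome XII.

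Set beside Cbp20, Rnt1 peaks on coding genes nearly always lay with the cap-binding protein. Of the 780 shared Rnt1 peaks on protein-coding genes alone, 753 (96.5%) overlapped a Cbp20 peak found in both Cbp20 lists. Over all 1180 shared Rnt1 peaks the count was 990 (83.9%). By genes, 747 of the 773 with a shared Rnt1 peak also had one of Cbp20 (96.6%), against 1998 of the 5229 without one (38.2%). All 65 peaks on Pol II non-coding genes had one, but of the 230 Rnt1 peaks on Pol III genes with no protein-coding gene 113 had one (49.1%). Cbp20 was on all 75 snoRNA genes, including the 5 without a shared Rnt1 peak, so at these genes the overlap is not particular to Rnt1. For the 66 peaks outside genes the count was 27 (40.9%). The 27 peaks on protein-coding genes without a Cbp20 peak included 12 on Ty elements or LTRs, 4 at URA2 and 2 at ACC1. Cbp20 peaks covered 21.5% of the genome and Rnt1 peaks 5.81%, the strains carry the tag on different proteins, so what the overlap owes to signal common to both was not tested.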

How the data were processed

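Peak lists of the 2 Rnt1-myc and 2 Cbp20-myc ChIP-seq libraries were used. The deposited files give chromosome, start and end of each peak, which the authors obtained by aligning reads to sacCer3 with Bowtie2, discarding those without a unique place and calling peaks with MACS2. Versions are not given in the sources used here. The lists hold no score or coverage, so no depth and no test over samples could be given. Samples were grouped by their labels; these number only replicate 2, and the other library is called replicate 1.

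Positions count from 1. Overlaps and covered bases were computed with Python 3.11.15, numpy 2.4.6 and pandas 2.3.3 on the R64 annotation and checked against bedtools 2.31.1 on simulated intervals; planted hairpins and B boxes were all found. Intervals are exact binomial (scipy 1.17.1). Every peak lay inside the R64 chromosome lengths. In counts of peaks by class, a peak was placed once, in the order tRNA, other Pol III, snoRNA, snRNA, other non-coding RNA, rDNA, protein-coding, pseudogene, outside genes. Terms came from the annotation's experimental evidence.

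Named were the 10 widest shared peaks on genes, the 10 most covered and 10 most completely covered protein-coding genes with no non-coding RNA gene within 500 bp, the 5 widest peaks outside genes, tRNA genes without a shared peak, other Pol III genes, snRNA genes, other non-coding genes with a peak, up to 4 genes a function list and RNT1. Other names, such as snoRNA genes without a peak, genes of a list without a peak and the purine and daughter cell lists, were chosen after their values were seen. RPP1, an RNase P subunit that a name pattern had put among ribosomal proteins, was removed after the counts were seen. A further gene was left out of the list of reported Rnt1 targets and is not reported here. The peaks and lists were chosen with earlier results of these data known.

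Alternatives were a shared overlap of at least 50% of the replicate 1 peak, the wider 50% of each list, each replicate left out, assignment by peak centre, other sets of genes and, chosen after seeing the data, leaving out peaks on Ty elements, LTRs and telomeres.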

Additional observations from a re-analysis of the deposited data

How the results depend on the processing

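Of 56 values of 10 results under the alternatives, 35 stayed within the spread between the replicates (or, for counts, within 1.5 times) and 21 moved. No paired analysis was possible because the Rnt1 libraries form 1 group and no result comes from a test. The cause of a move was not tested.

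With the wider 50% of each list, 561 peaks were shared, of which 9.63% lay on tRNA genes, 10.5% on any Pol III gene, 10.2% on Pol II non-coding genes, 78.4% on protein-coding genes alone and 1.07% outside genes; tRNA peaks are narrow, so this choice removes them first. Placed by the centre alone, 1.44% lay on Pol II non-coding genes and 15.8% outside genes. Without peaks on Ty elements, LTRs or telomeres, 17.4% lay on tRNA genes, 18.0% on any Pol III gene and 4.71% outside genes. In genes of at least 2000 bp the last of 3 equal parts held 36.6% of the covered bases.

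With either replicate left out, the share ran from 15.0 to 21.4% on tRNA genes, from 15.6 to 22.1% on any Pol III gene, from 3.96 to 5.25% on Pol II non-coding genes, from 66.6 to 73.7% on protein-coding genes alone and from 6.14 to 6.78% outside genes, where the lower tRNA and Pol II non-coding shares and the higher protein-coding and outside-gene shares were those of replicate 2 alone. The protein-coding genes touched numbered 810 to 1239, those covered over at least 50% 402 to 675, and the last of 3 equal parts of the gene held 37.5 to 39.1%. This last share was taken over all genes of at least 1000 bp with no non-coding RNA gene within 500 bp. In the 355 of these with a shared peak, replicate 2 alone gave 34.9%. Function lists above the share of all genes numbered 10 to 13, and 11 with shared peaks.

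Width and number of peaks depend on a depth that is unknown, and repeated sequence is seen only through uniquely mapped reads.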
